A study of Mus musculus with 16 samples.

Results

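A set of 10 genes of innate microbial sensing were followed in epithelial RNA of the mouse small intestine: the receptors Tlr1, Tlr2, Tlr3, Tlr4, Tlr5 and Tlr9, the adaptor Myd88, and the cytosolic sensors Nod1, Nod2 and Nlrp6. They were picked by name, as the rows of the count files that carry these 10 symbols among 24421 genes. No cut on a measured value was used, but earlier results of these data were known when the set was chosen. The libraries came from C57BL6/J mice labelled wild type, in 4 groups of 4: P6 jejunum, P6 ileum, P36 jejunum and P36 ileum, where P6 and P36 are postnatal days 6 and 36, before and after weaning. The same 8 mice gave both regions, with 2 female and 2 male mice at each age, so that mouse 1 in the P6 jejunum is also mouse 1 in the P6 ileum. No allele or treatment separated the groups. Each sample was a short segment whose epithelium was shaken loose in EDTA, without sorting of cells, and 16 libraries of 12159237 to 25947276 counts resulted. The study's methods allow a longer time in EDTA at P36 than at P6, which cannot be told apart from age.

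Toll-like receptors are membrane proteins that bind conserved microbial molecules through leucine-rich repeats and signal through a cytoplasmic TIR domain. Tlr1, Tlr2, Tlr4 and Tlr5 act mostly at the cell surface, where Tlr2 pairs with Tlr1 or Tlr6 to bind lipopeptides, Tlr4 binds lipopolysaccharide and Tlr5 binds flagellin. Tlr3 and Tlr9 act in endosomes, on double-stranded RNA and on CpG-rich DNA. All of these receptors except Tlr3 signal through Myd88 and then NF-kB. Nod1 and Nod2 sense fragments of peptidoglycan in the cytosol, and Nlrp6 is an inflammasome-forming sensor known from the intestinal epithelium.

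In the mm10 annotation of the files, Tlr1 lies at chr5:64924680-64933558 on the minus strand, Tlr2 at chr3:83836272-83841608 on the minus strand, Tlr4 at chr4:66827811-66842796 on the plus strand and Tlr5 at chr1:182954788-182976044 on the plus strand. The endosomal receptors lie at chr8:45395665-45410539 on the minus strand (Tlr3) and chr9:106222598-106226876 on the plus strand (Tlr9), and Myd88 lies at chr9:119335988-119340040 on the minus strand. Nod1 spans chr6:54923942-54972612 on the minus strand, Nod2 chr8:88647347-88688474 on the plus strand and Nlrp6 chr7:140920902-140929192 on the plus strand. The counts are of reads on the exons of these genes, and no exon of a member overlapped an exon of another gene on either strand.

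The receptors whose RNA moved most are shown here with the start of the gene, as 300 bases of RefSeq promoter sequence (GRCm38.p6, the assembly that mm10 names), read on the strand of the gene from 250 bases before the annotated start to 50 bases after it. RefSeq windows matched 9 of the 10 members, at 11 starts, and Tlr4 was not matched. Tlr5 is shown because it fell with age, Tlr3 and Tlr1 because they rose, and Tlr2 because it differed between the regions at P6. Capitals mark letters that match a searched motif on either strand: an NF-kB site in Tlr3 and Tlr2 and the PU.1 motif GAGGAAGT in Tlr1.
Tlr5, chr1:182954538-182954837, plus strand: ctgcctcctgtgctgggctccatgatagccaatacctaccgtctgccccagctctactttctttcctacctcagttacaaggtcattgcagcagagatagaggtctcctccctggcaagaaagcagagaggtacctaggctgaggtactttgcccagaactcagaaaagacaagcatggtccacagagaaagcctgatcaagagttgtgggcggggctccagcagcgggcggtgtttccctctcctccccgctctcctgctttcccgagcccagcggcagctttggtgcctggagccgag
Tlr3, chr8:45410331-45410630, minus strand: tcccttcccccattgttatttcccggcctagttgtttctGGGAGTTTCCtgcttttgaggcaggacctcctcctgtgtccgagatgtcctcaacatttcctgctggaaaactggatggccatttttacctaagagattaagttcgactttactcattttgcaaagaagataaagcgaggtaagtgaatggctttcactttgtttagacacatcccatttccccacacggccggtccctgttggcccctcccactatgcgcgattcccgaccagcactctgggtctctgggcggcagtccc
Tlr1, chr5:64933509-64933808, minus strand: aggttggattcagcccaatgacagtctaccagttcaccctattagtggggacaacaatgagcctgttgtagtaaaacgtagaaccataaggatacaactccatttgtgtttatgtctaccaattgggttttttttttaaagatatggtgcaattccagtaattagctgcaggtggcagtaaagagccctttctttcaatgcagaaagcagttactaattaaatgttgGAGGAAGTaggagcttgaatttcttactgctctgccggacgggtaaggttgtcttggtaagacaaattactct
Tlr2, chr3:83841559-83841858, minus strand: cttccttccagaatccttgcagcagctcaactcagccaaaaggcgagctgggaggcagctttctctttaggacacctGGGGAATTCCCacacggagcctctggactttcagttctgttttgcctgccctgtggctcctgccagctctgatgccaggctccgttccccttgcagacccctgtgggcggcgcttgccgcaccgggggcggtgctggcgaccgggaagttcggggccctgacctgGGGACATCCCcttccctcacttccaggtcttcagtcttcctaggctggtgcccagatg

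In all, 7 motifs were searched on both strands of these windows. The TATA box TATAAA was present in 13.6% of all 32851 RefSeq windows, the interferon-stimulated response element (GAAA, any pair of bases, GAAA) in 3.44%, the NF-kB site in 4.51%, the HNF4A motif CAAAGTCCA in 0.475%, the CDX2 motif TTTATNG in 10.9%, the PU.1 motif GAGGAAGT in 3.20% and the E-box CACGTG in 7.15%. The CDX2 letters can overlap those of the TATA box on the other strand. The window of Tlr2 held 3 NF-kB matches, of which the pair beginning at positions -173 and -172 from the start overlap and the last begins at -8. Tlr3 held 1 NF-kB match at -211, Tlr1 held the PU.1 motif at -23 of its outer start and the E-box at -195 of its inner start, and Tlr9 held the PU.1 motif at 10. Myd88 held the interferon element at -40 and overlapping TATA box letters at -164 and -160. The windows of Tlr5, Nod1, Nod2 and Nlrp6 held none of the 7 motifs. G and C made up 57.3% of the Tlr5 window, 51.0% of that of Tlr3, 40.3% at the outer Tlr1 start and 62.0% of that of Tlr2, against a median of 52.7% over all windows. A match is a string of letters and not an occupied site.

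The epithelial identity of the libraries was checked on marker lists in CPM, counts scaled to a common library size with TMM factors. Epcam lay between 1137 and 2230 CPM in all 16 libraries, and Vil1 between 752 and 4487. Markers of other cells were uneven. The 10 fibroblast and smooth muscle genes summed to 410 CPM in mouse 2 of the P6 ileum and to 7.37 to 63.5 in the other libraries, and its 8 endothelial genes summed to 47.3 CPM against 4.34 to 13.5. By group, the fibroblast and smooth muscle genes summed to 24.2 to 410 CPM in the P6 ileum and to 7.37 to 19.7 CPM in the P6 jejunum, without overlap. Mouse 4 of the P6 ileum stood apart in epithelial genes, with Krt8 at 256 CPM against 1113 to 1331 in its group and Vil1 at 752 against 1444 to 1546. Its 8 epithelial genes summed to 4055 CPM against 6624 to 7049. Its Epcam lay nearer the group, at 1747 CPM against 1834 to 2139. The T cell genes summed to 94.4 and 126 CPM in mice 1 and 3 of the P36 jejunum and to 3.11 to 13.9 CPM elsewhere, B and plasma cell genes to 5.96 to 85.1 CPM at P36 and to 0.262 to 4.61 at P6, and Paneth cell genes to 4448 to 15225 CPM at P36 and to 29.1 to 814 at P6. Neutrophil genes never summed to more than 1.30 CPM, with Mpo and Elane at 0 in every library. In bulk RNA, fewer cells of a type and less RNA per cell cannot be told apart.

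Levels of different genes were compared as TPM, which divides counts by exon length. Nlrp6 ranked first in all 4 groups, from 51.8 ± 15.6 TPM in the P6 ileum to 166 ± 11.5 TPM in the P36 jejunum (SD, n = 4). Myd88 followed at 40.1 to 44.2 TPM as group means, and its range overlapped that of Nlrp6 in the P6 ileum alone. The third place changed with age. It was held by Tlr5 at P6, at 22.8 ± 3.17 TPM in the jejunum and 31.9 ± 12.4 TPM in the ileum, and by Tlr3 at P36, at 21.3 ± 4.04 and 22.9 ± 3.51 TPM. At P36 Tlr1 came next, at 4.49 ± 1.31 TPM in the jejunum and 13.2 ± 2.44 TPM in the ileum. In the P6 jejunum the ranges of Tlr2 and Tlr3 overlapped, as did those of Nod2, Tlr1, Tlr4 and Tlr9, each with its neighbour in this order. In the P6 ileum the range of Tlr5 overlapped that of Myd88, and in mouse 4 Tlr5 was the highest member at 50.3 TPM. The ranges of Tlr2 and Nod1 also overlapped there, as did those of Tlr4, Tlr3, Nod2 and Tlr1 in turn. At P36 the ranges of Tlr2 and Nod1 overlapped in both regions, those of Nod2 and Tlr5 and of Tlr4 and Tlr9 in the jejunum, and those of Tlr4 and Tlr5 in the ileum. Tlr9 was last in all 4 groups.

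The make-up of receptor RNA turned over with age. The 12 Tlr genes of the files summed to 25.3 ± 3.19 TPM in the P6 jejunum, 44.8 ± 12.0 in the P6 ileum, 28.8 ± 5.26 in the P36 jejunum and, in the ileum of those mice, 42.5 ± 4.47. Tlr5 made up 88.4% to 91.4% of this sum in the P6 jejunum and 59.6% to 82.1% in the P6 ileum. At P36 it made up 1.25% to 2.14% in the jejunum and 2.00% to 2.45% in the ileum. Tlr3 made up 1.99% to 4.13% at P6, and 68.9% to 77.3% in the P36 jejunum and 45.7% to 64.8% in the P36 ileum. Tlr1 came second in the P36 ileum, at 25.3% to 33.3%, and Tlr2 made up 9.56% to 30.6% in the P6 ileum. The ratio of Tlr5 to Tlr3 in TPM was 21.8 to 34.6 in the 8 libraries at P6 and 0.0166 to 0.0471 in the 8 libraries at P36, so the ages did not overlap. The 6 Tlr genes that are not members were sparse: Tlr6, which pairs with Tlr2, had at most 8 counts in a library, and Tlr12 had 66 in mouse 2 of the P6 ileum and at most 17 elsewhere.

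**Figure D1:**
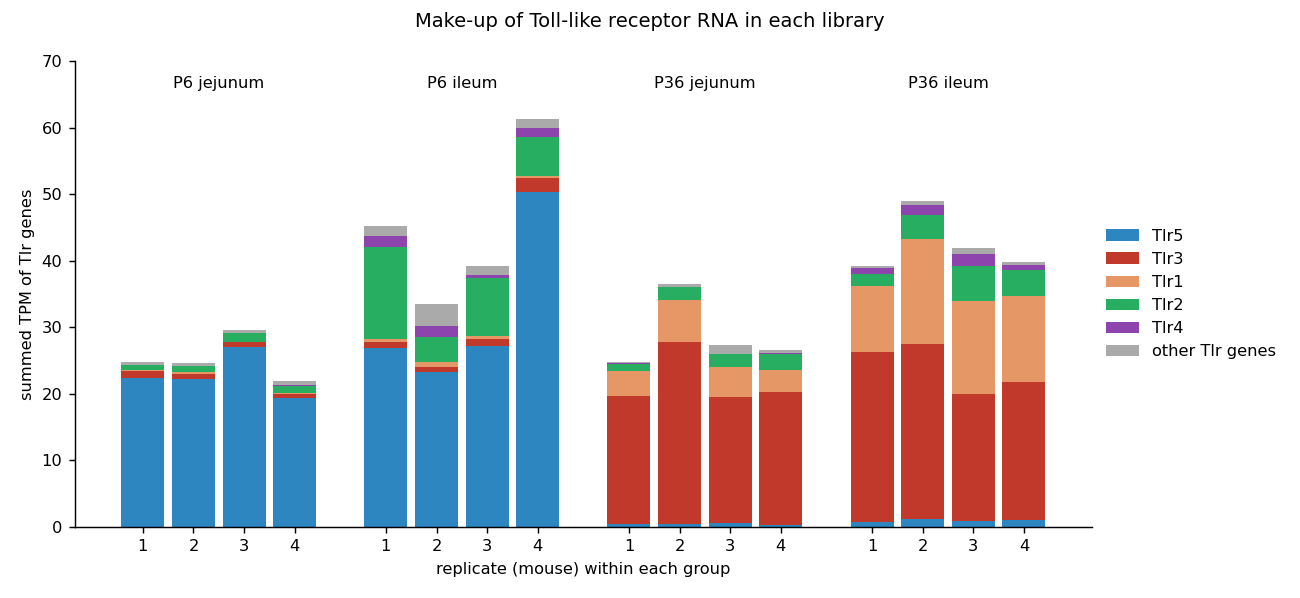
Summed TPM of the 12 Tlr genes (vertical axis) in each of the 16 libraries, 1 bar per mouse and region, with colours for Tlr5, Tlr3, Tlr1, Tlr2, Tlr4 and the other Tlr genes. Tlr5 fills most of every P6 bar (59.6% or more) and Tlr3 the largest part of every P36 bar (45.7% or more). TPM carries no TMM factor, so bar heights of different groups are not on the scale of the tests.

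Each member was tested across the 2 regions at each age and across the 2 ages in each region, with edgeR's quasi-likelihood test and Benjamini-Hochberg adjustment over all 13429 genes tested. Of the 10 members 9 passed the filter on low counts and Tlr9 did not. A gene is said to rise, fall or differ where its adjusted p was below 0.05, and the study's call rule added a log2 fold change beyond 2 in either direction. Values are given on the log2 scale with their standard error (SE).

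With age in the jejunum, 4 of the 9 members tested rose, 2 fell and 3 did not pass. In this comparison 24.7% of all genes tested rose and 26.9% fell. The 3 members Tlr1, Tlr3 and Tlr5 also passed the fold change minimum, as did 16.4% of all genes. With age in the ileum, 4 of the 9 rose, 1 fell and 4 did not pass, beside 25.5% of all genes that rose and 30.1% that fell, and 4 (Tlr1, Tlr3, Tlr5 and Nlrp6) passed the fold change minimum, beside 16.4% of all genes. The median absolute log2 fold change of the 9 members was 1.05 in the jejunum and 0.77 in the ileum, against 0.63 and 0.70 for all genes.

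Tlr5, the flagellin receptor, fell in both regions. In the P6 jejunum it lay at 36.6, 36.8, 40.3 and 32.0 CPM in mice 1 to 4, and in the P36 jejunum at 0.765, 0.794, 0.988 and 0.586 CPM. In the P6 ileum it lay at 32.7, 29.8, 32.2 and 56.6 CPM, and in the P36 ileum at 1.38, 1.70, 1.43 and 1.66 CPM. The ages did not overlap in either region, and the P36 level rested on 11 to 35 counts per library. The fall was -5.52 ± 0.24 on the log2 scale in the jejunum (45.9-fold, adjusted p = 7.16e-11) and -4.62 ± 0.23 in the ileum (24.5-fold, adjusted p = 2.39e-10). The highest P6 value belonged to mouse 4 of the ileum, the library low in keratins, and the P36 ileum was above the P36 jejunum in 4 of 4 mice (jejunum over ileum -0.96 ± 0.24, adjusted p = 0.0125). At P6 the regional difference was -0.05 ± 0.19 (adjusted p = 0.861). The difference between these 2 regional contrasts, the region-by-age interaction, was 0.90 ± 0.31 with an adjusted p of 0.0820. Without mouse 4 of the P6 ileum that adjusted p became 0.00150.

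Tlr3, the receptor of double-stranded RNA, rose in both regions. It lay at 2.27, 1.65, 1.58 and 1.34 CPM in the P6 jejunum and at 1.48, 1.29, 1.79 and 3.14 CPM in the P6 ileum. At P36 it lay at 46.4, 61.8, 43.0 and 47.7 CPM in the jejunum and at 60.7, 52.3, 44.1 and 47.7 CPM in the ileum. Every P36 library exceeded every P6 library. The rise was 4.85 ± 0.27 in the jejunum (28.9-fold, adjusted p = 5.79e-10) and 4.73 ± 0.27 in the ileum (26.6-fold, adjusted p = 8.94e-10). The regions overlapped at both ages, with jejunum over ileum at -0.16 ± 0.26 at P6 and -0.04 ± 0.22 at P36 (adjusted p = 0.679 and 0.933).

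Tlr1, a partner of Tlr2 in the binding of triacylated lipopeptides, rose from almost no counts. Its libraries held 4, 11, 0 and 4 counts in the P6 jejunum and 9, 21, 10 and 9 in the P6 ileum, which is 0 to 0.491 and 0.441 to 0.905 CPM. At P36 it lay at 6.59, 10.1, 7.27 and 5.54 CPM in the jejunum and at 16.7, 22.1, 22.7 and 21.1 CPM in the ileum. All P36 libraries were above all P6 libraries, and all P36 ileum libraries above those of the P36 jejunum. The rise was 5.03 ± 0.46 in the jejunum (adjusted p = 1.78e-07) and 5.12 ± 0.42 in the ileum (adjusted p = 6.51e-08), with fold changes that depend on the few P6 counts. At P36 the jejunum was lower than the ileum by -1.48 ± 0.35 (2.80-fold, adjusted p = 0.00769). At P6 the difference of -1.39 ± 0.51 had an adjusted p of 0.0546, with the ileum higher in 4 of 4 mice. With the mouse as a replicate block that adjusted p was 0.0424, and it was 0.00910 without mouse 2 of the P6 jejunum and 0.0434 without mouse 4 of the P6 ileum. It was also below 0.05 with DESeq2 (0.0117), library totals (0.0186) and thinned counts (0.0460). Without mice 2 and 4 of the P6 ileum together it was 0.195, with a difference of -1.16. Without mouse 2 of the P6 jejunum the rise in the jejunum was 5.80. Of 9 T cell genes tested, 9 rose with age in the jejunum and 1 did so in the ileum. The 12 listed T cell genes in the files summed to 10.5 to 126 CPM in the P36 jejunum and 5.75 to 10.5 CPM in the P36 ileum, where Tlr1 was higher. Of 8 B and plasma cell genes tested, 8 rose in the jejunum and 7 in the ileum. Of 8 goblet cell genes tested, 8 rose in each region, and at each age 4 were higher in the ileum and 0 in the jejunum. In each region 6 of 7 Paneth cell genes and 3 of 3 tuft cell genes also rose. Of 8 enteroendocrine genes, 1 rose in the jejunum and 3 fell in the ileum. The part of these cell types in the Tlr1 levels was not tested.

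Nlrp6 rose with age in both regions. It lay at 203, 190, 223 and 221 CPM in the P6 jejunum and at 374, 407, 381 and 425 CPM in the P36 jejunum. The P6 ileum was the low group, at 105, 87.2, 106 and 47.9 CPM, and the P36 ileum lay at 352, 350, 315 and 384 CPM. The rise was 0.92 ± 0.19 in the jejunum (1.90-fold, adjusted p = 7.78e-04) and 2.01 ± 0.20 in the ileum (4.04-fold, adjusted p = 3.95e-07). The ileal value sits at the fold change minimum: it was 1.81 without mouse 4 of the P6 ileum, 1.97 without mouse 4 of the P36 ileum, 1.73 without mice 2 and 4 of the P6 ileum together and 1.96 with library totals, with an adjusted p below 0.05 in each. The ages did not overlap in either region.

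Myd88, the adaptor shared by most of these receptors, varied least. It lay at 39.0 to 45.7 CPM in the P6 jejunum, 39.9 to 43.9 CPM in the P36 jejunum and 37.4 to 48.5 CPM in the P36 ileum. The P6 ileum was lower, at 32.0, 34.3, 32.0 and 22.9 CPM. It rose with age in the ileum by 0.52 ± 0.13 (adjusted p = 0.00303) and differed by -0.02 ± 0.13 in the jejunum (adjusted p = 0.930). On the TPM scale the P6 ileum was not set apart, at 42.2 ± 5.33 TPM beside 43.5 ± 2.10 TPM in the P6 jejunum.

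The peptidoglycan sensors moved in the jejunum. Nod1 lay at 11.5, 7.90, 9.19 and 6.18 CPM in the P6 jejunum and at 3.53, 4.85, 4.94 and 3.41 CPM in the P36 jejunum, a fall of -1.05 ± 0.36 without overlap (adjusted p = 0.0224). That adjusted p rose above 0.05 when mouse 1 of the P6 jejunum (0.0715) or mouse 1 or 4 of the P36 jejunum (0.0599 and 0.0614) was left out. In the ileum the Nod1 difference with age was 0.16 ± 0.35 (adjusted p = 0.730). Nod2 went the other way in the jejunum, from 0.305, 0.491, 0.525 and 0.766 CPM at P6 to 1.29, 1.94, 1.44 and 1.39 CPM at P36, a rise of 1.53 ± 0.35 without overlap (adjusted p = 0.00157). In the ileum Nod2 lay at 1.28, 1.77, 1.36 and 1.08 CPM at P6 and at 0.498, 0.907, 0.653 and 1.19 CPM at P36. Those ranges overlapped, and the difference of -0.77 ± 0.34 had an adjusted p of 0.0646. A limma fit with the mouse as a replicate block gave -0.83 with an adjusted p of 0.0424. No mouse was sampled at both ages, so that fit did not pair the ages. In edgeR the adjusted p was 0.0432 without mouse 4 of the P6 ileum and 0.0349 without mouse 4 of the P36 ileum. Nod2 rested on 7 to 44 counts per library.

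Tlr2 and Tlr4 did not pass with age. Tlr2 changed by 0.92 ± 0.38 in the jejunum (adjusted p = 0.0560) and by -0.65 ± 0.36 in the ileum (adjusted p = 0.136). The first of these fell below 0.05 without any 1 of 6 libraries (mice 1, 2 and 4 of the P6 ileum, mouse 1 of the P36 jejunum and mice 1 and 3 of the P36 ileum, adjusted p 0.0263 to 0.0492), and the second without mouse 2 of the P6 ileum (0.0422). The first also did so with DESeq2 (0.0390), library totals (0.0462) and in a fit of the 8 jejunum libraries (0.00838), and without mice 2 and 4 of the P6 ileum together both did (0.0149 and 0.00870). Tlr4 changed with age by 0.79 ± 0.81 (jejunum) and 0.38 ± 0.55 (ileum) (adjusted p = 0.438 and 0.578).

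**Figure D2:**
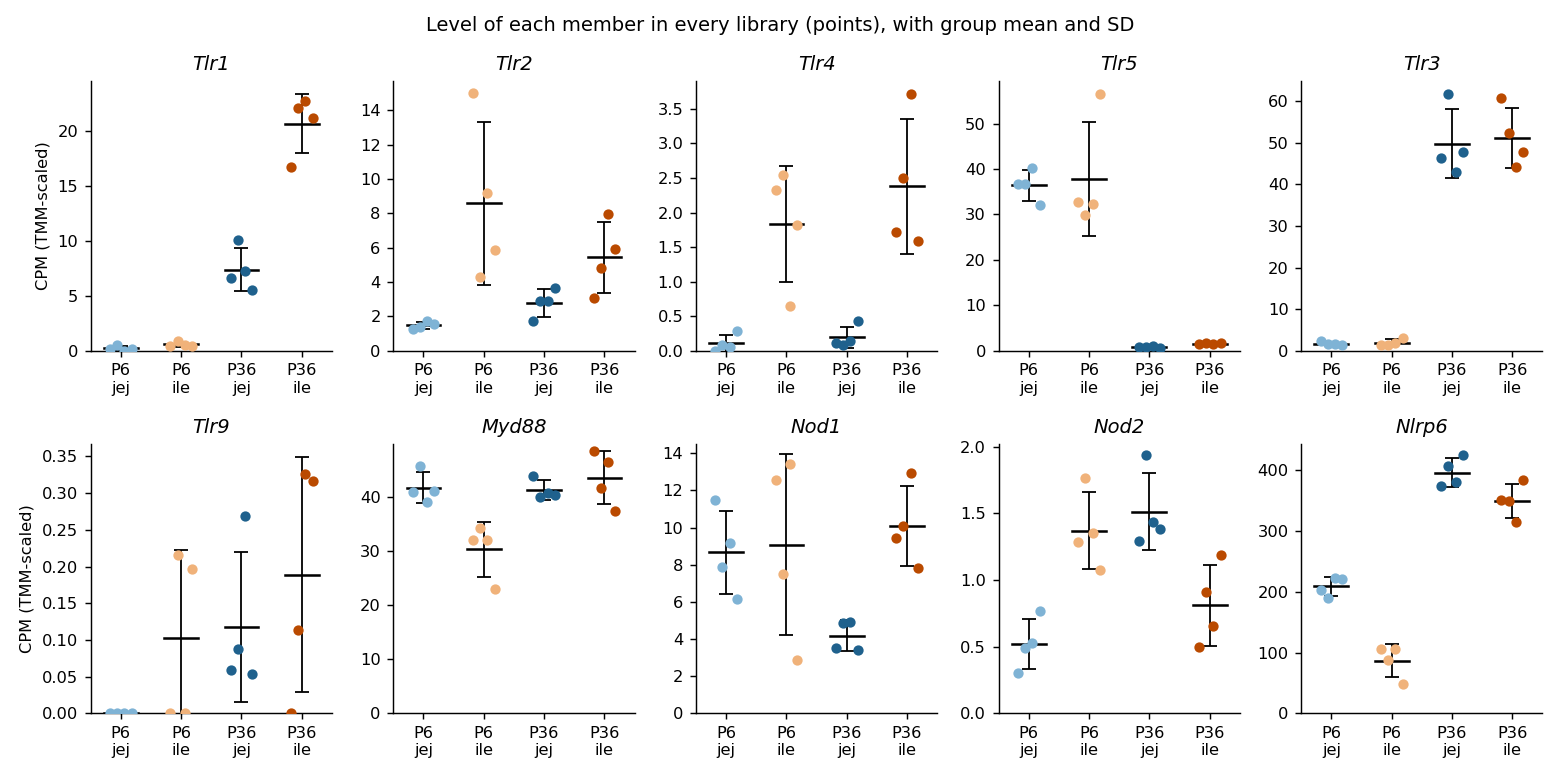
TMM-scaled CPM (vertical axis, from 0) of each of the 10 members in every library, by group (P6 or P36, jejunum or ileum), with 1 point per mouse and lines for the group mean and SD. Tlr5 drops and Tlr3 and Tlr1 climb from P6 to P36 in both regions, and Tlr4 is near 0 in the jejunum at both ages.

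Between the regions at P6, 2 of the 9 members tested were higher in the jejunum, 3 were higher in the ileum and 4 did not pass. Over all genes, 11.1% had higher levels in jejunum and 14.8% in ileum. Tlr2 and Tlr4 also passed the fold change minimum, beside 6.50% of all genes. At P36 no member was higher in the jejunum, 4 were higher in the ileum and 5 did not pass, beside 8.30% of all genes for the first direction and 7.80% for the second. For that count of 0, an unadjusted edgeR p below 0.05 gave 1 member higher in the P36 jejunum, Nod2, as did DESeq2 after adjustment (0.0494). Tlr4 alone passed the fold change minimum at P36, beside 3.60% of all genes.

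Tlr4, the lipopolysaccharide receptor, was the most regional member at both ages. Its libraries held 0, 2, 1 and 6 counts in the P6 jejunum and 47, 59, 12 and 37 in the P6 ileum. At P36 they held 2, 2, 3 and 8 counts in the jejunum and 31, 44, 91 and 20 in the ileum. The ileum was higher in 4 of 4 mice at each age and the regions did not overlap. As group means this was 0.107 ± 0.125 CPM against 1.83 ± 0.844 at P6, and 0.192 ± 0.158 CPM against 2.38 ± 0.980 at P36. The log2 fold change of jejunum over ileum was -4.04 ± 0.71 at P6 and -3.62 ± 0.66 at P36 (adjusted p = 5.50e-04 and 0.00135), with sizes that depend on the few jejunal counts. They became -5.12 without mouse 4 of the P6 jejunum and -4.33 without mouse 4 of the P36 jejunum. The interaction was -0.41 ± 0.93 (adjusted p = 0.822).

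Tlr4 is also known from macrophages. The 13 macrophage and dendritic cell genes listed summed to 427 to 518 CPM in the P6 jejunum and 179 to 396 CPM in the P6 ileum, mostly Csf1r. The other 12 genes summed to 11.3 to 20.4 CPM in the P6 jejunum and 27.6 to 62.7 CPM in the P6 ileum, and all 12 had the higher mean in the ileum, as Tlr4 did. At P36 the whole list summed to 27.4 to 50.3 CPM in the jejunum and 44.9 to 61.8 CPM in the ileum, mostly Itgam, and 3 of those 12 had the higher mean in the ileum. Of the 8 listed genes tested, at P6 1 favoured the jejunum and 2 the ileum, and at P36 1 favoured the ileum. Adgre1, a macrophage gene, lay at 0.0436 to 0.268 CPM in the P6 jejunum and 0.0987 to 2.46 CPM in the P6 ileum, and at P36 at 0 to 0.584 and 0 to 0.170 CPM. Xcr1 was at 0 in the P6 jejunum and the P36 ileum. Of 8 fibroblast and smooth muscle genes tested, 7 were higher in the P6 ileum and 0 in the P6 jejunum, and at P36 1 and 0. The part of these and of the macrophage and dendritic cell genes in the Tlr4 levels was not tested. Without mice 2 and 4 of the P6 ileum the Tlr4 difference at P6 was -3.77 (adjusted p = 0.0029).

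Tlr2, the lipopeptide receptor, was higher in the P6 ileum. It lay at 1.27, 1.38, 1.73 and 1.53 CPM in the P6 jejunum and at 15.0, 4.27, 9.17 and 5.88 CPM in the ileum of the same mice. The regions did not overlap, and the difference was -2.53 ± 0.39 (5.79-fold, adjusted p = 1.83e-04). The spread in the P6 ileum was wide, and mice 1 and 3, the higher pair, share the first part of their identifier, as do mice 2 and 4; the labels do not say what it stands for. Nod1 split the same way in the P6 ileum, at 12.5 and 13.4 CPM in mice 1 and 3 and at 7.50 and 2.89 CPM in mice 2 and 4. It also did so in the P6 jejunum, at 11.5 and 9.19 against 7.90 and 6.18 CPM, where Tlr2 did not. Paneth cell genes summed to 814 and 575 CPM in mice 1 and 3 of the P6 jejunum and to 45.3 and 29.1 in mice 2 and 4. In the P6 ileum the sums were 667 and 473 against 58.6 and 87.7 CPM. At P36 Tlr2 lay at 1.71, 2.87, 2.92 and 3.68 CPM in the jejunum and at 3.04, 4.82, 7.96 and 5.94 CPM in the ileum. The ileum was again higher in 4 of 4 mice, but the groups overlapped and the difference of -0.96 ± 0.37 had an adjusted p of 0.0937. It was 0.0392 without mouse 1 of the P36 ileum and 0.0247 without mice 2 and 4 of the P6 ileum together. The interaction for Tlr2 was -1.57 ± 0.53 (adjusted p = 0.0788). That adjusted p was 0.0335 without mouse 2 and 0.0443 without mouse 4 of the P6 ileum, and 0.0399 with DESeq2. Fibroblast and smooth muscle genes were also higher in the P6 ileum, as given above, and their part in the Tlr2 levels was not tested.

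Nod1 was lower in the jejunum at P36. The 4 mice had 3.53, 4.85, 4.94 and 3.41 CPM in the jejunum and 9.45, 10.1, 12.9 and 7.83 CPM in the ileum, without overlap. The difference was -1.27 ± 0.36 (2.41-fold, adjusted p = 0.0245). The adjusted p rose above 0.05 when mouse 1 or 4 of the P36 jejunum (0.0786 and 0.0735) or mouse 2 or 3 of the P36 ileum (0.0570 and 0.0733) was left out. At P6 the regional difference was -0.06 ± 0.35, with the jejunum higher in 2 of 4 mice (adjusted p = 0.915). The interaction was 1.21 ± 0.50 (adjusted p = 0.161), and 1.36 with an adjusted p of 0.0353 with the mouse as a replicate block.

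Nod2 was the member whose regional order turned round. At P6 the ileum was higher in 4 of 4 mice (jejunum over ileum -1.39 ± 0.35, adjusted p = 0.00763), and at P36 the jejunum was higher in 4 of 4 mice (0.92 ± 0.34, adjusted p = 0.0811). The regions did not overlap at either age. The P36 contrast did not pass (it did with DESeq2, and without mice 2 and 4 of the P6 ileum together at 0.0477), but the interaction did, at -2.31 ± 0.49 (adjusted p = 0.00702), beside 8.69% of all genes tested. Nod2 is known from Paneth and stem cells of the crypt. Paneth cell genes, 7 of the 8 listed, summed to 4448 to 8814 CPM in the P36 jejunum and 5477 to 15225 CPM in the P36 ileum, the region where Nod2 was lower, and the 7 stem and cycling cell genes to 960 to 1175 and 850 to 1643 CPM. At P6, where Nod2 was higher in the ileum, Paneth cell genes summed to 29.1 to 814 CPM in jejunum and 58.6 to 667 CPM in ileum. The stem and cycling cell genes summed to 581 to 738 and 364 to 718 CPM there. Of 7 Paneth cell genes tested, 4 were higher in the ileum at P6 and 1 at P36, and 0 in the jejunum. Of 7 stem and cycling cell genes tested, 1 was higher in the ileum at each age and 0 in the jejunum. The part of these cells in the Nod2 levels was not tested.

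Nlrp6 was higher in the P6 jejunum than in the P6 ileum in 4 of 4 mice, by 1.27 ± 0.19 (2.41-fold, adjusted p = 1.69e-04). At P36 the jejunum was again higher in 4 of 4 mice, but by 0.18 ± 0.19, and the groups overlapped (adjusted p = 0.593). The interaction passed at 1.09 ± 0.27 (adjusted p = 0.0187). Nod2 and Nlrp6 were the 2 of 9 members that passed the interaction, and without mouse 4 of the P6 ileum there were 5 (Tlr2, Tlr5 and Myd88 in addition). The share of all genes in that refit is not given here, so the larger count is not read as a result about the members. Myd88 was higher in the P6 jejunum by 0.46 ± 0.13 (adjusted p = 0.0164), without overlap. This call did not hold without mouse 2 of the P6 jejunum (adjusted p = 0.0539), in a fit of the 8 P6 libraries (0.0856) or with counts scaled by library totals only (0.17, adjusted p = 0.332), a scaling that shifted the median of all genes by -0.29 in this contrast. At P36 the Myd88 difference was -0.08 ± 0.13 (adjusted p = 0.753), and its interaction of 0.54 ± 0.18 had an adjusted p of 0.0856 (0.0374 without mouse 4 of the P6 ileum and 0.0443 with DESeq2).

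**Figure D3:**
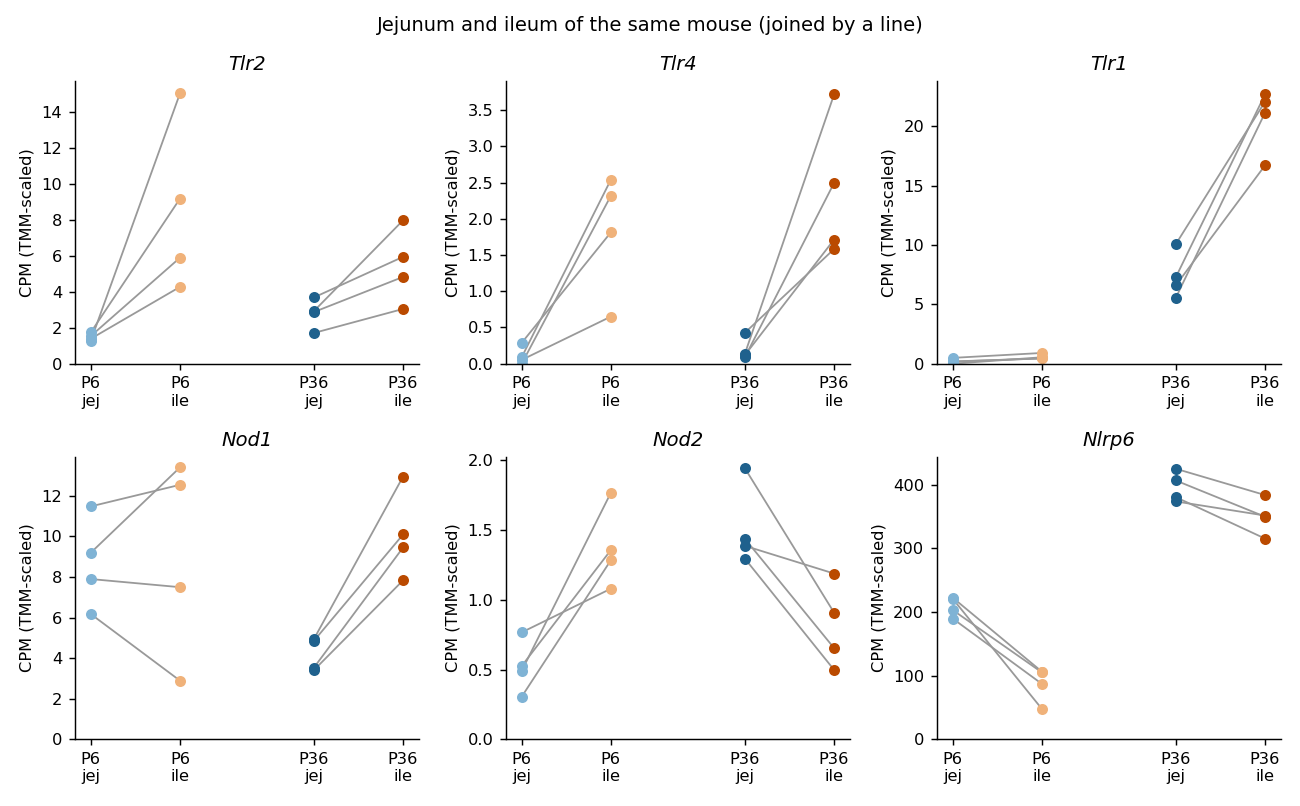
TMM-scaled CPM (vertical axis, from 0) of Tlr2, Tlr4, Tlr1, Nod1, Nod2 and Nlrp6 in the jejunum and ileum of each mouse, joined by a line, at P6 and P36. All 4 lines of Tlr4 climb toward the ileum at both ages, while those of Nod2 climb at P6 and drop at P36.

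Tlr9, the receptor of CpG DNA, did not pass the filter on low counts. It had 0 counts in all 4 P6 jejunum libraries, 95036436 counts in total, where 3 counts would be 0.0316 CPM (library totals, no TMM), a limit for counting error only. In the P36 jejunum it had 10 of 83830415 counts, 3.78 times that limit over the group. Without mouse 3, which held 6 of those 10, it had 4 of 61608341 counts, 2.06 times the limit. Its libraries held 0, 5, 0 and 4 counts in the P6 ileum, and at P36 they held 1, 2, 6 and 1 in jejunum and 0, 2, 8 and 4 in ileum. Fitted without the filter, its adjusted p was 0.0448 with age in the jejunum, 0.573 with age in the ileum, 0.0905 between the regions at P6 and 0.831 at P36.

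**Figure D4:**
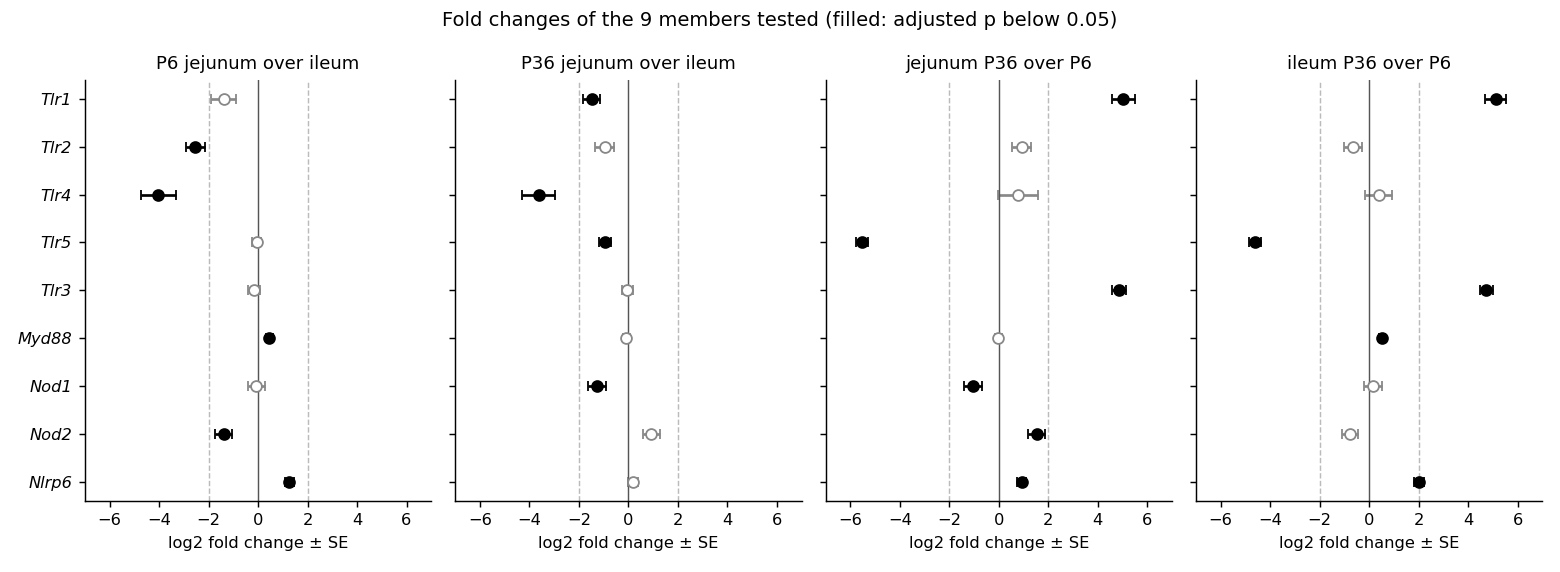
Log2 fold change with its SE (horizontal axis) of the 9 members tested, in 1 panel per comparison, filled where the adjusted p was below 0.05, with dashed lines at a log2 fold change of 2 in either direction. Tlr1, Tlr3 and Tlr5 lie beyond 2 in both age panels and Tlr4 in both regional panels.

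The 3 members with the widest range of group means were Tlr1, Tlr5 and Tlr3, at 6.30, 5.39 and 4.84 on the log2 CPM scale. The genes most like them over the 16 libraries were ranked by Pearson's r of log2 CPM, a description in which the libraries fall into 2 ages. Tlr1 was most like Plce1 (r = 0.992), Prelp (0.978) and Prss32 (0.977), which had higher means in the ileum than in the jejunum at both ages as Tlr1 did. Tlr5 was most like Slc38a1 (r = 0.995), an amino acid transporter, Stra6l (0.995) and Plagl2 (0.992). Stra6l, for example, had group means of 522 and 515 CPM in the P6 jejunum and ileum and 9.80 and 15.9 CPM at P36. Tlr3 was most like Gdpd1 (r = 0.995), Ttc39b (0.994) and Cipc (0.992).

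The surrounding pathway was read from 7 hand-made lists of 108 genes, of which 107 were in the files and 90 passed the filter on low counts. The lists leave out the 10 members. With age in the jejunum 30 of the 90 rose and 20 fell, and in the ileum 34 rose and 19 fell, to be read beside the shares of all genes given above. Between the regions at P6, 11 favoured the jejunum and 11 the ileum, beside 11.1% and 14.8% of all genes. At P36 the counts were 13 and 6, beside 8.30% and 7.80% of all genes. The interaction passed for 7, beside 8.69% of all genes. The same shares of all genes stand beside the counts of single lists below. Shares of all genes are not given here for the refits that follow. Without mouse 4 of the P6 ileum, 31 genes passed between the regions at P36 in place of 19 and 15 passed the interaction. The interaction also passed for 11 without mouse 1 of the P36 ileum, and for 4 without any 1 of mice 1 to 4 of the P6 jejunum, mouse 1 of the P6 ileum, mice 1 and 4 of the P36 jejunum or mice 2 and 4 of the P36 ileum.

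Among proteins that serve the receptors, 2 of 9 genes tested rose and 3 fell with age in the jejunum, and 1 rose and 2 fell in the ileum. Cd36, a scavenger receptor that also works with Tlr2, was the most regional. At P6 it lay at 444 ± 53.3 CPM in jejunum and 6.32 ± 5.71 in ileum, and at 75.2 ± 23.6 and 0.754 ± 0.450 CPM at P36. Jejunum over ileum was 6.12 ± 0.61 at P6 and 6.71 ± 0.67 at P36 (adjusted p = 2.97e-06 and 6.10e-06), and at P6 it was 6.94 without mouse 2 of the P6 ileum. Unc93b1, the chaperone that carries Tlr3 and Tlr9 to endosomes, was low in the P6 ileum, at 8.12 ± 4.76 CPM, beside 27.6 ± 1.39 CPM in jejunum of the same mice and 35.8 ± 2.33 CPM in ileum at P36. It was higher in the P6 jejunum by 1.76 ± 0.39 (adjusted p = 0.00363) and rose with age in the ileum by 2.14 ± 0.40 (adjusted p = 2.94e-04). Ly96, the co-receptor MD-2 of Tlr4, fell with age in both regions, by -1.11 ± 0.31 (jejunum) and -1.53 ± 0.31 (ileum) (adjusted p = 0.00635 and 5.98e-04), the ileal value being -0.82 without mice 2 and 4 of the P6 ileum together.

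Adaptors and kinases were mixed. Of 21 tested, 7 rose and 6 fell with age in the jejunum, 6 rose and 6 fell in the ileum. Between the regions 3 were higher in the ileum at P6, and 3 in each region at P36. Ripk2, the kinase downstream of Nod1 and Nod2, rose in the jejunum from 1.93 ± 0.448 to 6.44 ± 0.874 CPM (1.74 ± 0.23, adjusted p = 1.27e-05). It was lower in the P6 jejunum than in the P6 ileum, by -0.89 ± 0.23 (adjusted p = 0.00990), and it passed the interaction at -1.48 ± 0.32 (adjusted p = 0.00897). Card9, an adaptor known mostly from myeloid cells, rose in the ileum from 0.234 ± 0.256 to 30.3 ± 19.3 CPM (6.99 ± 0.71, adjusted p = 6.04e-07, and 7.72 without mouse 3 of the P6 ileum) and at P36 was lower in the jejunum, at 0.748 ± 0.158 CPM.

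The list of NF-kB and IRF factors also holds the kinase complex genes Chuk, Ikbkb and Ikbkg, the inhibitor genes Nfkbia and Nfkbib, and Jun and Fos. Its genes rose more often than they fell with age: 7 of 15 rose and 2 fell in the jejunum, and 8 rose and 1 fell in the ileum. Jun was among those that fell in the jejunum and Fos among those that rose in the ileum. Nfkbia, the NF-kB inhibitor and target gene, rose from 19.8 ± 3.30 to 93.3 ± 28.6 CPM in the jejunum (2.24 ± 0.25, adjusted p = 1.75e-06), and Relb rose by 1.82 ± 0.34 (jejunum) and 2.08 ± 0.34 (ileum) (adjusted p = 3.14e-04 and 9.28e-05). The median log2 fold change of this list was 0.61 in both regions, against -0.01 and -0.03 for all genes. Between the regions 1 was higher in the jejunum (Irf7) and 1 in the ileum (Rel) at P6, and 1 in the jejunum (Chuk) at P36. The Rel call did not hold with the mouse as a replicate block (adjusted p = 0.0531) or without mouse 1 or 4 of the P6 jejunum (0.0597 and 0.0665). Of 15 negative regulators, 2 rose and 3 fell in the jejunum and 7 rose and 5 fell in the ileum. Tnfaip3, the ubiquitin-editing enzyme A20, was higher in the jejunum at both ages, by 0.94 ± 0.23 at P6 and 1.04 ± 0.23 at P36 (adjusted p = 0.00691 and 0.00552).

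Of 16 NLR and inflammasome genes tested, 7 rose and 2 fell with age in the jejunum and 6 rose and 2 fell in the ileum. RNA of the interleukin gene Il18 rose from 14.7 ± 3.17 to 140 ± 23.9 CPM in the jejunum (3.25 ± 0.27, adjusted p = 6.20e-08) and by 2.45 ± 0.26 in the ileum (adjusted p = 1.16e-06). Pycard, the adaptor ASC that joins Nlrp6 to caspase, rose by 1.21 ± 0.22 and 1.82 ± 0.23 (adjusted p = 2.85e-04 and 5.68e-06). Naip1, which recognises components of bacterial secretion needles, fell by -1.29 ± 0.19 and -1.64 ± 0.19 (adjusted p = 3.20e-05 and 2.76e-06). Naip2 was higher in the P6 ileum, at 227 ± 39.8 CPM against 96.6 ± 8.76 in the P6 jejunum.

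Nucleic acid sensors of the cytosol were mixed. Of 7 tested, 1 rose and 2 fell with age in the jejunum, and 3 rose and 2 fell in the ileum. Ddx58 (RIG-I) fell by -0.70 ± 0.21 and -1.28 ± 0.21 (adjusted p = 0.0109 and 1.02e-04) and Dhx58 by -1.55 ± 0.32 and -1.31 ± 0.32 (8.09e-04 and 0.00291). The jejunal Ddx58 call did not hold without mouse 3 of the P36 jejunum (-0.54, adjusted p = 0.0691). Tmem173 (STING) rose by 2.13 ± 0.37 and 2.22 ± 0.36 (adjusted p = 1.76e-04 and 8.04e-05). Of 7 genes of peptidoglycan recognition and handling, 4 rose and 2 fell in the jejunum and 3 rose and 1 fell in the ileum. Lyz1, the Paneth cell lysozyme that cuts peptidoglycan, rose from 9.25 ± 3.05 to 3802 ± 1314 CPM in the jejunum (8.68 ± 0.46, adjusted p = 3.35e-10). Slc15a1, a peptide carrier that also takes up Nod ligands, rose by 2.95 ± 0.57 (jejunum) and 1.91 ± 0.55 (ileum) (adjusted p = 4.55e-04 and 0.00801). The ileal call did not hold with the mouse as a replicate block (1.30, adjusted p = 0.0588) or without mouse 1 of the P36 ileum (0.96, adjusted p = 0.0632).

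**Figure D5:**
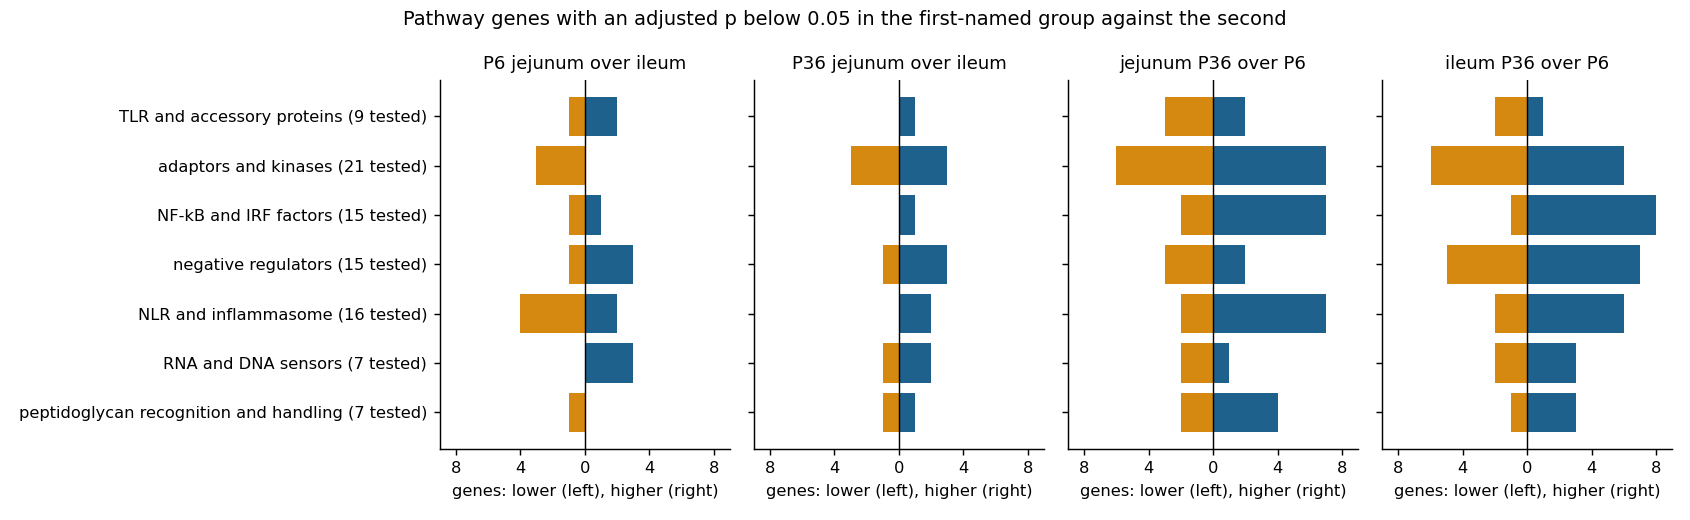
Number of pathway genes with an adjusted p below 0.05 (horizontal axis) in each of 7 lists and 4 comparisons, with genes higher in the first-named group to the right and lower genes to the left. The NF-kB and IRF list has 7 and 8 genes to the right and 2 and 1 to the left in the age panels.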

How the data were processed

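RNA was measured in 16 libraries of EDTA-released epithelium. Per the labels and the study's methods, the authors used the Kapa Stranded mRNA kit. Trimming was with Trimmomatic 0.38 and alignment, to mm10, with STAR (2.5.3 in the submitters' processing notes). The authors counted read pairs on exons per gene with featureCounts of Subread 1.6.3, by strand and with multi-mapping reads left out. The deposited values are raw counts of 24421 genes per library, 12159237 to 25947276 in all, and low genes carry the largest counting error.

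Genes were kept by filterByExpr on the 4 groups (13429 genes), scaled by TMM and fitted in 1 quasi-likelihood model of edgeR 4.0.16 (R 4.3.3) with 4 group means. The SE is the absolute log2 fold change divided by the square root of the F statistic, log2 CPM used a prior count of 2, and TPM used the exon lengths in the files. P-values are adjusted by the Benjamini-Hochberg method over all genes tested. On simulated counts the procedure was tested and most of the changed genes were recovered. Differences as small as many of those of the members, and libraries paired by mouse, were not tested there. The 2 regions of a mouse pair the libraries, as the labels give the mouse: correlations of the deviations from the group means were 0.391, 0.383, 0.336 and 0.157 at P6 and 0.288, 0.337, 0.347 and 0.240 at P36, and a paired fit was an alternative. No pair of replicates was a copy.

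The members and lists were chosen with earlier results of these data known. Named genes are all members, the 3 genes most like each of the 3 widest-ranging members, markers and some pathway genes. The pathway genes come from up to 4 of each list per contrast with the smallest adjusted p among those below 0.05. Not all of those are named. Alternatives were DESeq2 1.42.0, 2 other scalings, 2 other filters, fits of 8 libraries, sex as a covariate, a robust prior, thinned counts, calls by adjusted p alone, a replicate block for the mouse (in limma 3.58.1 for the ages), and each library left out. Promoter sequences are from RefSeq.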

Additional observations from a re-analysis of the deposited data

Results flagged for a closer look

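The libraries of a group were compared for a value that stood apart from the other 3 by Dixon's outlier criterion at the 95% level in 39 sets of values, 1 per member and group, and 3 stood apart, where chance gives about 1 in 20. Tlr5 in mouse 4 of the P6 ileum lay at 56.6 CPM, above 29.8 to 32.7 CPM in the other mice of the group; the same library had the lowest Nlrp6, Nod1, Myd88 and Krt8 levels of its group. Tlr4 in mouse 4 of the P36 jejunum lay at 0.426 CPM, which is 8 counts against 2, 2 and 3. Tlr9 in mouse 3 of the P36 jejunum lay at 0.269 CPM, which is 6 counts against 1, 2 and 1.

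The regional difference changed with age for 2 members by the interaction test of edgeR. Nod2 had an interaction of -2.31 ± 0.49 on the log2 scale (adjusted p = 0.00702), higher in the ileum of 4 of 4 mice at P6 and in the jejunum of 4 of 4 mice at P36. Nlrp6 had an interaction of 1.09 ± 0.27 (adjusted p = 0.0187), with jejunum over ileum at 1.27 at P6 and 0.18 at P36.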

How the results depend on the processing

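Each member was refitted under every alternative, and 23 of 45 member results kept their direction and their side of the threshold throughout. With no minimum fold change, 5 members passed in place of 2 between the regions at P6, 4 in place of 1 at P36 and 6 in place of 3 with age in the jejunum. With single libraries left out, the members past both criteria numbered 2 to 3 and 1 between the regions at P6 and P36, 3 with age in the jejunum and 3 to 4 in the ileum, and 2 to 5 passed the interaction. The interaction passed for 4 members with DESeq2 and for 4 without mice 2 and 4 of the P6 ileum together, an alternative added after the data had been seen. Shares of all genes are not given here for these refits, so their counts are not read as results about the members. Pathway genes between the regions at P36 numbered 14 to 31 with single libraries left out and 30 without both of those mice. Pathway genes in the interaction numbered 4 to 15 with single libraries left out, 4 without a filter and 13 with DESeq2. The cause was not tested.

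Sign changes were limited to member differences that did not pass. With single libraries left out, jejunum over ileum at P6 ranged from -0.33 to 0.18 for Tlr3, from -0.15 to 0.21 for Tlr5 and from -0.35 to 0.17 for Nod1, and at P36 from -0.16 to 0.054 for Tlr3. The change with age ranged from -0.048 to 0.071 for Myd88 in the jejunum and from -0.13 to 0.42 for Nod1 in the ileum, and the interaction from -0.68 to 0.47 for Tlr1, from -0.29 to 0.23 for Tlr3 and from -1.49 to 0.30 for Tlr4. Without mice 2 and 4 of the P6 ileum together, Tlr3 and Tlr5 were at 0.046 and 0.14 between the P6 regions, Myd88 at 0.019 with age in the jejunum, Nod1 at -0.35 with age in the ileum and Tlr3 at 0.081 in the interaction. Scaling by library totals put Myd88 at 0.081 with age in the jejunum and Tlr1 at -0.051 in the interaction, and thinned counts put Tlr1 there at -0.029. In the fits of 8 libraries the filter removed Tlr1 between the P6 regions and Tlr4 with age in the jejunum. Depth limited Tlr1 at P6, Tlr4 in the jejunum, Nod2 and Tlr9 most.

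The paired fit, with the mouse as a replicate block, put Tlr1 between the regions at P6 (-1.47, adjusted p = 0.0424) past 0.05. It did the same for Nod1 in the interaction (1.36, adjusted p = 0.0353) and turned the Nod1 difference at P6 to 0.10 (adjusted p = 0.787). For the ages, which no mouse pairs, the limma fit with that block put Nod2 in the ileum past 0.05 (-0.83, adjusted p = 0.0424). No other member call changed.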
